A study of Oryctolagus cuniculus with 6 samples.

Results

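The collagen genes of rabbit limbal stem cells (LSCs) were compared between explant cultures from fresh and from preconditioned corneas. The members were chosen by name, as every gene of the count table whose symbol is COL, a number, A and a number. This gave 41 genes of 22190, and 29 of them had enough reads to be tested. One collagen gene, COL1A1, was called higher in the preconditioned group. The only one called lower, COL9A3, had at most 27 counts in any library and passed the filter on low counts through its fresh libraries alone. Of all tested genes, 1.08% were called higher and 1.20% lower. Among the members that were not called, all 6 tested chains of type IV collagen had negative log2 fold changes and all 3 tested chains of type VI collagen had positive ones. These calls are those of edgeR. DESeq2, the tool of the study, called 6 collagen genes higher and 4 lower, against 3.62% and 4.17% of its tested genes. Its calls included COL4A1, COL4A2 and the 3 type VI chains.

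Collagens are matrix proteins built from triple helices of alpha chains, and a chain is the product of one gene. Fibrillar collagens form the tensile fibrils of the corneal stroma, FACITs (fibril-associated collagens with interrupted triple helices) sit on the surface of such fibrils, and beaded filaments of type VI run between them. Type IV collagen forms the network of basement membranes, the sheet on which limbal epithelial cells rest, and the transmembrane and anchoring collagens fasten the basal epithelial cell to that sheet and the sheet to the stroma.

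The fresh group held 3 libraries of LSCs that grew out of limbal explants of fresh rabbit corneas. The preconditioned group held 3 libraries of LSCs from corneas kept for 7 days in liquid nitrogen in a serum and DMSO cryomedium with 10 ng/mL of the inflammatory cytokine IL-1β, and then thawed and cultured in the same way. Freezing and IL-1β came together, so their effects cannot be told apart, and corneas frozen without the cytokine were not analysed here. The cultures were outgrowths of whole limbal biopsies in keratinocyte medium, with no sorting step described, and strain, age and the animals behind each library are not given in the sources used here. If libraries shared animals, the p values describe only the spread between these libraries.

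The libraries held 31952352 to 34327534 counts on genes, of which collagen genes took 0.338% to 0.476%. Expression was compared as CPM, counts relative to the library's total, scaled by TMM, edgeR's correction for library composition, and tested with edgeR's quasi-likelihood model. A gene was called when its p, adjusted by Benjamini-Hochberg over the 15029 tested genes, was no more than 0.05 and its log2 fold change was 1 or more in size. Throughout, log2 fold changes are preconditioned minus fresh. Over all tested genes, 163 were called higher and 181 lower, and the median log2 fold change was 0.01. Scaled by library size alone, the calls were 142 higher and 423 lower, and that median was −0.16. The keratin KRT5 of basal limbal epithelium was abundant in every library (7337 to 11740 CPM). Genes listed as stromal markers were detected as well, with 2002 to 4621 CPM summed over the list described at the end. Most of that sum was ALDH1A1 and FN1, and which cells made them was not tested. From the same list, DCN had 38.3 to 208 CPM and KERA 0.790 to 8.81 CPM.

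Of the 29 tested collagen genes, 1 was called higher, against 1.08% of all tested genes, and 1 was called lower, against 1.20%. With DESeq2 in place of edgeR, 6 were called higher, against 3.62% of the genes that tool tested, and 4 lower, against 4.17%. All 3 preconditioned libraries lay above all 3 fresh libraries for 6 collagen genes (20.7%, against 17.9% of all tested genes) and below them for 7 (24.1%, against 18.8%). For the other 16 the groups overlapped. Log2 fold changes ran from −4.82 to 2.66 with a median of 0.46, and 15 of the 29 were at least 1 in size (9 positive, 6 negative), against 13.6% of all tested genes. These summaries moved with single libraries. The median ran from 0.17 without fresh replicate 1 and 0.18 without preconditioned replicate 2 to 0.86 without fresh replicate 3. The positive and negative log2 fold changes of at least 1 numbered 5 and 8 without fresh replicate 1, 5 and 6 without preconditioned replicate 2, 12 and 8 without preconditioned replicate 3, and 13 and 4 without fresh replicate 3. The collagen genes also varied more between libraries of the same group. The median SD of log2 CPM within the fresh group was 0.745 over the 29 genes and 0.196 over all tested genes, and within the preconditioned group it was 0.418 and 0.286.

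**Figure D1:**
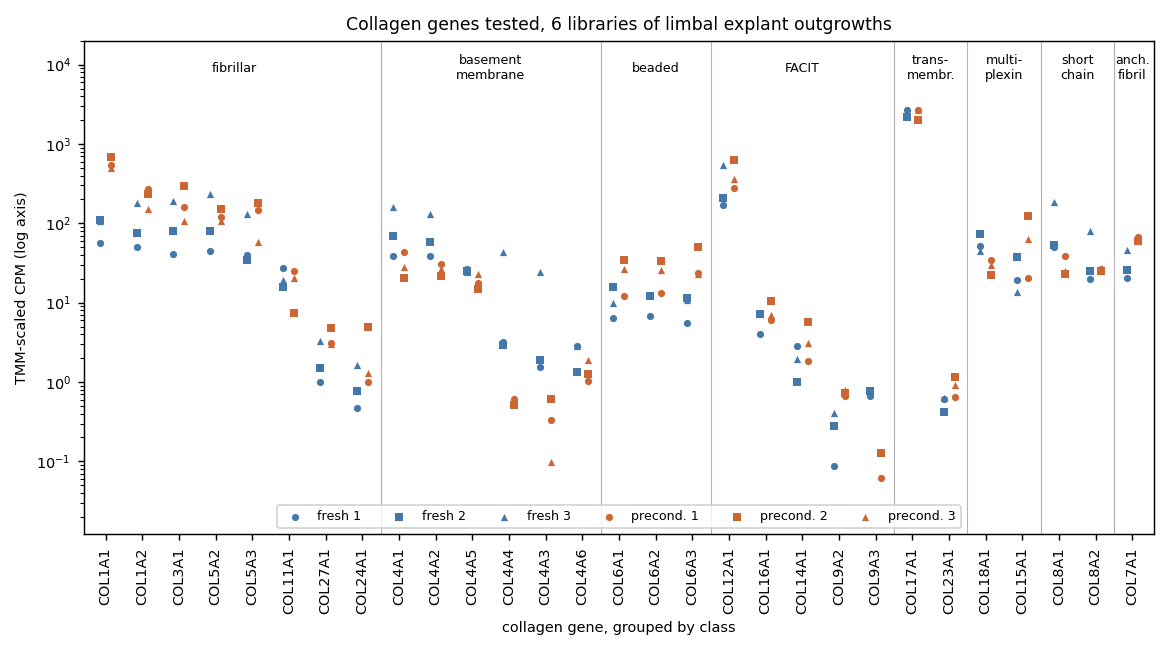
TMM-scaled CPM (log axis) of each of the 29 tested collagen genes in the 3 fresh (blue) and 3 preconditioned (orange) libraries, with 1 symbol per replicate and genes grouped by class. COL17A1 lies at 1993 to 2687 CPM in all 6 libraries, the orange points of COL1A1 lie at 505 to 693 CPM with no blue point above 109, and fresh replicate 3 (blue triangles) lies far above its group for COL4A3 and COL4A4.

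Fresh replicate 3 stood apart from its group for many collagen genes. This library was the highest of its group for 17 of the 29 collagen genes (58.6%, against 36.3% of all tested genes). Its CPM was 14.3 times the mean of the other fresh libraries for COL4A4 and 13.9 times for COL4A3, 2.60 to 3.76 times for COL1A2, COL3A1, COL5A2, COL5A3, COL27A1, COL24A1, COL4A1, COL4A2, COL12A1, COL8A1 and COL8A2, and 1.31 times for COL1A1. In the preconditioned group, replicate 2 was the highest for 15 of 29 (51.7%, against 26.5%). Some markers of other cells, but not all, moved with these libraries. Of the 11 tested keratocyte and fibroblast markers, 9 were highest of the fresh group in replicate 3 and 8 were highest of the preconditioned group in replicate 2. Thus DCN had 85.8, 88.6 and 142 CPM in the fresh and 43.3, 208 and 38.3 CPM in the preconditioned libraries. Of the 6 tested myofibroblast and pericyte markers, 3 were highest of their group in fresh replicate 3. These were ACTA2 with 17.0, 15.4 and 48.2 CPM, TAGLN with 8.96, 10.4 and 36.6 CPM, and CNN1. In the preconditioned group 3 of the 6 were highest in replicate 1 and 2 in replicate 2. There ACTA2 had 88.4, 38.5 and 32.4 CPM and TAGLN 19.4, 14.2 and 8.89 CPM. All 5 tested immune markers were highest of their group in preconditioned replicate 2, but only 1 of them in fresh replicate 3. The endothelial marker PECAM1 was also highest in preconditioned replicate 2 (0.883, 12.8 and 4.97 CPM), but not in fresh replicate 3. The rest of the endothelial list had at most 8 counts in any library and was not tested. None of the 7 tested epithelial markers was highest of its group in fresh replicate 3. In bulk RNA fewer cells of a type and less RNA per cell cannot be told apart, and the part of these cells in the collagen values and differences was not tested. Without fresh replicate 3, 19 of the 29 log2 fold changes were positive, in place of 18, and COL1A1 and COL7A1 were called higher and no collagen gene lower.

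The table held 10 fibrillar genes, and 8 were tested. Of these, 1 was called higher and 7 had positive log2 fold changes. The median over the 8 was 0.93, with 0.49 without preconditioned replicate 2, 0.64 without fresh replicate 1 and 1.71 without fresh replicate 3.

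COL1A1, which encodes the chief chain of type I collagen, the main fibril of the stroma, was the one fibrillar gene called higher. It had 56.8, 109 and 108 CPM in the fresh libraries and 537, 693 and 505 CPM in the preconditioned libraries. The groups were far apart, with every preconditioned library several times above the highest fresh one. The means were 91.3 ± 29.8 and 578 ± 100 CPM (SD, n = 3 each), which is 6.33-fold (log2 fold change 2.66, standard error 0.28, edgeR's adjusted p = 0.015). When single libraries were left out, the log2 fold change stayed between 2.41 and 2.80, but edgeR's adjusted p was 0.069 without fresh replicate 2 and 0.068 without preconditioned replicate 2, so that the call was lost in these fits.

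COL1A2 encodes the partner chain that joins COL1A1 in the type I molecule. Its values were 50.2, 76.0 and 178 CPM in the fresh group, against 270, 235 and 150 CPM in the preconditioned group. Fresh replicate 3 was above preconditioned replicate 3, so that the groups overlapped. The log2 fold change was 1.11 (standard error 0.48, edgeR's adjusted p = 0.17), and 1.79 (adjusted p = 0.081) without fresh replicate 3.

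COL24A1, a minor fibrillar chain, had 0.464, 0.760 and 1.64 CPM in the fresh libraries and 1.004, 4.89 and 1.32 CPM in the preconditioned libraries. Preconditioned replicate 2 alone was high (log2 fold change 1.33, edgeR's adjusted p = 0.26). Without that library the log2 fold change was 0.28.

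The other 5 tested fibrillar genes had log2 fold changes from −0.23 to 0.93, adjusted p values of 0.23 to 0.96 from edgeR's quasi-likelihood test, and overlapping groups. The highest of these, COL5A3 and COL27A1, were at 1.80 and 1.54 without fresh replicate 3 (adjusted p = 0.12 in edgeR for each), and over the other fits that left out a library they went down to 0.61 and 0.62. Of the 5, COL3A1 and COL5A2 were singled out after their values were seen, because type III and type V chains assemble with type I in mixed fibrils and type V limits fibril width in the cornea. COL3A1 had 41.4, 79.6 and 191 CPM in the fresh group, against 161, 295 and 106 CPM in the preconditioned group. COL5A2 had 45.4, 80.2 and 236 CPM in the fresh group, against 119, 151 and 107 CPM in the preconditioned group. For both, fresh replicate 3 was inside or above the preconditioned range while the other fresh libraries were below it. Their log2 fold changes were 0.85 and 0.06 with all libraries, and 1.63 (adjusted p = 0.15) and 0.996 (adjusted p = 0.12) without fresh replicate 3 in edgeR's quasi-likelihood test. Without preconditioned replicate 2, the log2 fold change of COL3A1 was 0.36 (edgeR's adjusted p = 0.77). COL5A1, the partner of COL5A2, had no row and was not analysed here. The cartilage chains COL2A1 and COL11A2 had at most 2 and 3 counts in any library and were not tested.

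All 6 chains of type IV collagen, the basement membrane class, were tested and none was called. Each log2 fold change was negative, with a median of −1.53, and the preconditioned libraries lay below the fresh ones for 4 of the 6 chains (18.8% of all tested genes lay below in this way). Without fresh replicate 3 all 6 were still negative and the median was −0.86, and over the other fits that left out a library it ran to −1.87. The sign of each chain was the same in the 14 alternative fits, which differed in tool, scaling, filter or libraries.

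COL4A1 and COL4A2 encode the chains found in nearly all basement membranes. COL4A1 had 39.0, 69.7 and 159 CPM in the fresh libraries and 43.9, 20.6 and 27.9 CPM in the preconditioned libraries. Preconditioned replicate 1 was above fresh replicate 1 and the groups overlapped there. COL4A2 had 39.0, 58.9 and 130 CPM in the fresh group, against 30.7, 21.8 and 26.8 CPM in the preconditioned group, with no overlap. The log2 fold changes were −1.54 (standard error 0.53, adjusted p = 0.11) and −1.52 (standard error 0.43, adjusted p = 0.075) in edgeR's quasi-likelihood test. Without fresh replicate 3 they were −0.82 (adjusted p = 0.24) and −0.89 (adjusted p = 0.11). DESeq2 called both genes lower.

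COL4A3 and COL4A4, chains of specialised basement membranes such as those of the kidney glomerulus, had the largest negative log2 fold changes of all tested collagen genes with all libraries in edgeR. COL4A4 had 3.16, 2.95 and 43.6 CPM in the fresh libraries and 0.609, 0.512 and 0.626 CPM in the preconditioned libraries. COL4A3 had 1.57, 1.88 and 24.0 CPM in the fresh group, against 0.335, 0.608 and 0.0988 CPM in the preconditioned group. For both chains every preconditioned library was below every fresh library, and fresh replicate 3 stood far above the rest of its group. The log2 fold changes of −4.82 (standard error 1.23, adjusted p = 0.064) and −4.71 (standard error 1.33, adjusted p = 0.076) were not called by edgeR's quasi-likelihood test. Without fresh replicate 3 they were −2.39 (adjusted p = 0.069) and −2.30 (adjusted p = 0.14) in edgeR, and COL9A3, at −2.71, was then lower than both.

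COL4A5 and COL4A6 had the smallest log2 fold changes of the 6 chains. COL4A5 had 26.2, 25.4 and 24.4 CPM in the fresh group, against 17.5, 14.7 and 23.3 CPM in the preconditioned group, and fresh replicate 3 was level with the other fresh libraries. Its log2 fold change was −0.45 (edgeR's adjusted p = 0.15), and that of COL4A6 was −0.75 (adjusted p = 0.27) with overlapping groups. These are the 2 chains outside the rule for named genes, described to complete the class.

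The table held 4 genes of type VI, the beaded filament collagen, of which 3 were tested and none was called. All 3 log2 fold changes were positive, with a median of 1.20 (0.90 without preconditioned replicate 2 to 1.59 without fresh replicate 2), and they were positive in the 14 alternative fits as well. COL6A6 had at most 4 counts in any library, and COL6A4 and COL6A5 had no row and were not analysed here.

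COL6A3 encodes the large chain that joins COL6A1 and COL6A2 in the type VI molecule. It had 5.48, 11.4 and 10.7 CPM in the fresh libraries and 23.9, 50.8 and 23.2 CPM in the preconditioned libraries, and the lowest preconditioned library was clearly above the highest fresh one. The log2 fold change was 1.83 (standard error 0.41, edgeR's adjusted p = 0.052), which just missed the call.

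COL6A1 had 6.32, 15.8 and 9.87 CPM in the fresh group, against 12.2, 34.8 and 26.5 CPM in the preconditioned group. COL6A2 had 6.75, 12.3 and 12.6 CPM in the fresh group, against 13.2, 33.0 and 26.01 CPM in the preconditioned group. Preconditioned replicate 1 was the low library of its group for both, falling inside the fresh range for COL6A1 and just above it for COL6A2. Their log2 fold changes were 1.20 (standard error 0.46, adjusted p = 0.14) and 1.19 (standard error 0.38, adjusted p = 0.094). Without preconditioned replicate 1, COL6A1 (1.51, adjusted p = 0.038), COL6A2 (1.47, adjusted p = 0.018) and COL6A3 (1.997, adjusted p = 0.030) were all called higher by edgeR's quasi-likelihood test. That fit also called 3.98% of all its tested genes higher and 6.01% lower, and in the other 5 fits that left out a library none of the 3 was called (edgeR's adjusted p of 0.18 to 0.34, 0.16 to 0.26 and 0.090 to 0.15). DESeq2 called the 3 genes higher with all libraries.

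**Figure D2:**
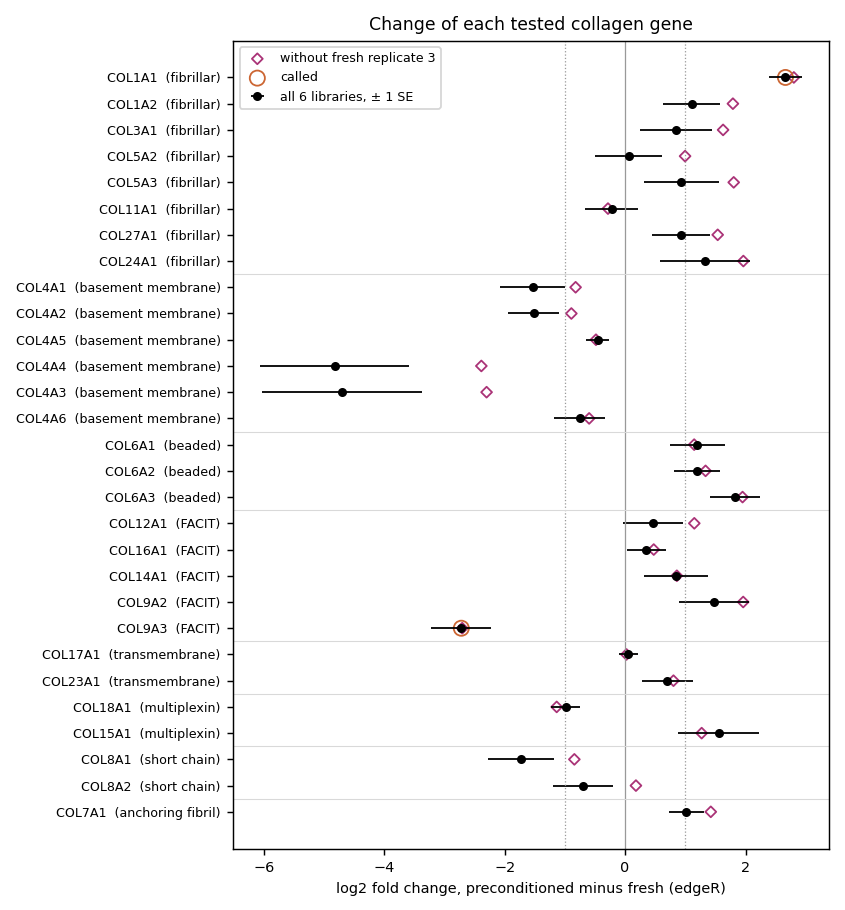
Log2 fold change, preconditioned minus fresh, of each tested collagen gene from edgeR with all 6 libraries (black points, bars 1 standard error), with the called genes ringed and the value without fresh replicate 3 as an open diamond. COL1A1 (2.66) and COL9A3 (−2.72) are ringed, and the diamonds of COL4A3 and COL4A4 lie at −2.30 and −2.39, about midway to 0.

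Of 9 FACIT genes, 5 were tested, 1 was called lower, and 4 had positive log2 fold changes. The median was 0.46, with 0.078 without preconditioned replicate 2, 0.17 without fresh replicate 1 and 0.86 without fresh replicate 3.

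COL9A3, a chain of the type IX collagen best known from cartilage and vitreous, was the one collagen gene called lower, at a very low level. It had 23, 27 and 27 counts in the fresh libraries and 2, 4 and 4 counts in the preconditioned libraries, which is 0.667, 0.760 and 0.738 CPM against 0.0609, 0.128 and 0.132 CPM. The fresh values were close together and all well above the preconditioned ones. The gene passed the filter on low counts only through its fresh libraries, the group in which it was higher, so that the call is given as a description and supports nothing further. The log2 fold change was −2.72 (standard error 0.50, edgeR's adjusted p = 0.039). With a minimum of 1 CPM it was not tested, and with the replicate number as a block it was not called (edgeR's adjusted p = 0.10). It was called in 1 of the 6 fits that left out a library, with adjusted p values of 0.023 to 0.15 in edgeR's test.

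COL9A2, another type IX chain, had 3, 10 and 15 counts in the fresh group, against 22, 23 and 24 counts in the preconditioned group. The preconditioned libraries were all higher, opposite in direction to COL9A3 (log2 fold change 1.48, standard error 0.58, edgeR's adjusted p = 0.14). COL9A1, the third chain of that molecule, had no row and was not analysed here.

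COL12A1, the FACIT of type I fibrils, was the most abundant of the class. It had 169, 211 and 539 CPM in the fresh libraries and 277, 629 and 362 CPM in the preconditioned libraries. Fresh replicate 3 was the second highest of all 6 libraries and the groups overlapped. Its log2 fold change was 0.46 (standard error 0.50, adjusted p = 0.56), and 1.15 (adjusted p = 0.15) without fresh replicate 3, in edgeR's quasi-likelihood test. Without preconditioned replicate 2 it was 0.064 (edgeR's adjusted p = 0.96). COL16A1 had 4.06, 7.26 and 7.19 CPM in the fresh group, against 5.99, 10.6 and 7.01 CPM in the preconditioned group, largely the same range (log2 fold change 0.35, edgeR's adjusted p = 0.49, and 0.078 without preconditioned replicate 2). COL14A1 had a log2 fold change of 0.85 with overlapping groups, and it ran from 0.33 without preconditioned replicate 2 to 1.23 without fresh replicate 1. COL19A1, COL20A1, COL21A1 and COL22A1 had at most 15 counts in any library and were not tested.

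COL17A1, the transmembrane hemidesmosome collagen that ties the basal epithelial cell to its basement membrane, was by far the most abundant collagen gene. It had 2660, 2156 and 2269 CPM in the fresh libraries and 2687, 1993 and 2676 CPM in the preconditioned libraries, with the groups interleaved. The log2 fold change was 0.05 with a 95% interval of −0.33 to 0.43 (edgeR's adjusted p = 0.85), and it was −0.11 with library size alone. By FPKM, the deposited level corrected for gene length and library size, its mean was 422 ± 45.6 in the fresh group, against 391 ± 72.9 in the preconditioned group (SD, n = 3 each), and by its mean over the 6 libraries it ranked 190 of the 22190 genes. COL23A1, the other tested transmembrane gene, had 21, 15 and 23 counts in the fresh group, against 21, 36 and 28 counts in the preconditioned group (log2 fold change 0.70, adjusted p = 0.29). COL13A1, a collagen of cell adhesion sites, had 6, 3 and 6 counts in the fresh group, against 6, 10 and 1 counts in the preconditioned group, and COL25A1 had at most 17 counts in any library, so that neither was tested.

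COL7A1 forms the anchoring fibrils that run from the epithelial basement membrane into the stroma. It had 20.3, 26.1 and 46.1 CPM in the fresh libraries and 68.1, 59.5 and 59.4 CPM in the preconditioned libraries. The preconditioned values were close together and all above the fresh ones. Its log2 fold change was 1.01 (standard error 0.29, edgeR's adjusted p = 0.076) and was not called. Without fresh replicate 3, the highest of its group, it was 1.42 and called higher (adjusted p = 0.046), in a fit that called 0.111% of its genes higher. In the other 5 fits that left out a library it was not called (edgeR's adjusted p of 0.11 to 0.22).

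COL18A1 and COL15A1 are the basement membrane-associated multiplexins, whose C-terminal fragments include endostatin in the case of COL18A1, and they had opposite signs. COL18A1 had 52.1, 74.0 and 45.1 CPM in the fresh libraries and 34.7, 22.0 and 29.5 CPM in the preconditioned libraries, all of them below the fresh range. Its log2 fold change was −0.99 (standard error 0.24, edgeR's adjusted p = 0.055), just short of both cutoffs, and it was called lower without preconditioned replicate 1 (−1.16, adjusted p = 0.025), the fit that called 6.01% of its genes lower, and in no other fit that left out a library (edgeR's adjusted p of 0.097 to 0.17). COL15A1 had 19.5, 37.7 and 13.6 CPM in the fresh group, against 20.2, 124 and 63.5 CPM in the preconditioned group. Preconditioned replicate 1 lay inside the fresh range while the other preconditioned libraries were above it. This gave 1.55 on the log2 scale (standard error 0.67, adjusted p = 0.17), with 0.83 without preconditioned replicate 2.

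COL8A1 and COL8A2 encode type VIII collagen, the short chain collagen of Descemet's membrane. COL8A1 had 50.2, 53.3 and 184 CPM in the fresh libraries and 38.6, 22.9 and 25.1 CPM in the preconditioned libraries, with no overlap. COL8A2 had 19.8, 25.3 and 79.5 CPM in the fresh group, against 26.9, 24.8 and 25.2 CPM in the preconditioned group, so that fresh replicate 3 alone stood apart. The log2 fold changes were −1.73 (standard error 0.55, adjusted p = 0.094) and −0.70 (standard error 0.50, adjusted p = 0.38) in edgeR's quasi-likelihood test. Without fresh replicate 3 they were −0.84 (adjusted p = 0.13) and 0.18 (adjusted p = 0.55), the latter with its sign turned. COL10A1, the short chain collagen of growth cartilage, had at most 4 counts in any library. The remaining members, COL26A1 and COL28A1, had at most 1 and 12 counts and were not tested.

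COL1A1, COL6A1, COL6A3, COL7A1 and COL15A1 were selected by the study from differences in these same libraries, so that their common direction here is not independent evidence. The study also measured these genes by qPCR and reports results like those of its sequencing, and the qPCR was not examined here.

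Levels were then compared between genes on the FPKM scale, which corrects for length. The summed FPKM of the collagen genes was 600, 572 and 782 in the fresh libraries and 759, 716 and 703 in the preconditioned libraries, overlapping ranges. After COL17A1, the highest mean levels in the fresh group were those of COL12A1 (31.5 ± 20.9 FPKM), COL3A1 (23.0 ± 17.3), COL1A2 (22.9 ± 15.4), COL5A2 (20.5 ± 17.4), COL1A1 (20.0 ± 6.61) and COL8A1 (19.4 ± 15.6; SD, n = 3 each). These neighbours in the order differed by less than their spread, and most of the means rested on fresh replicate 3. Without that library COL12A1 had 19.5, COL1A1 18.1, COL18A1 16.99, COL1A2 14.2, COL3A1 13.4, COL5A2 10.6 and COL8A1 10.4 FPKM, so that COL1A1 and COL18A1 came next after COL12A1. In the preconditioned group the level of COL1A1 was 112 ± 16.4 FPKM, followed by COL1A2 (43.7 ± 12.6), COL12A1 (38.3 ± 15.4) and COL3A1 (36.5 ± 17.96; SD, n = 3 each), and the values of COL1A1 were above those of the next genes in every preconditioned library.

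The share of the summed FPKM held by each class differed between the groups in several classes. Fibrillar genes held 8.52%, 14.1% and 22.0% in the fresh libraries and 31.6%, 39.6% and 25.4% in the preconditioned libraries, without overlap. With COL1A1 left out of the family, a choice made after seeing the data, they held 6.59%, 10.4% and 19.6% against 20.4%, 26.1% and 13.2%, and the groups overlapped. Basement membrane genes held 3.10%, 4.71% and 7.90% against 1.90%, 1.21% and 1.74%, and short chain genes 2.44%, 2.90% and 7.12% against 1.67%, 1.24% and 1.38%, both lower without overlap. The transmembrane share, nearly all of it COL17A1, was 78.9%, 67.5% and 52.2% against 57.7%, 42.9% and 61.1%, and the groups overlapped. Beaded genes held 0.939% ± 0.408 in the fresh group, against 1.83% ± 0.781 in the preconditioned group, FACIT genes 4.89% ± 2.22 and 5.61% ± 2.31, multiplexins 3.20% ± 1.45 and 2.58% ± 0.993, and COL7A1 0.512% ± 0.142 and 0.846% ± 0.0565 (SD, n = 3 each). Shares within a library sum to the whole, so that a larger share of one class lowers the others, and no test was made of them.

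**Figure D3:**
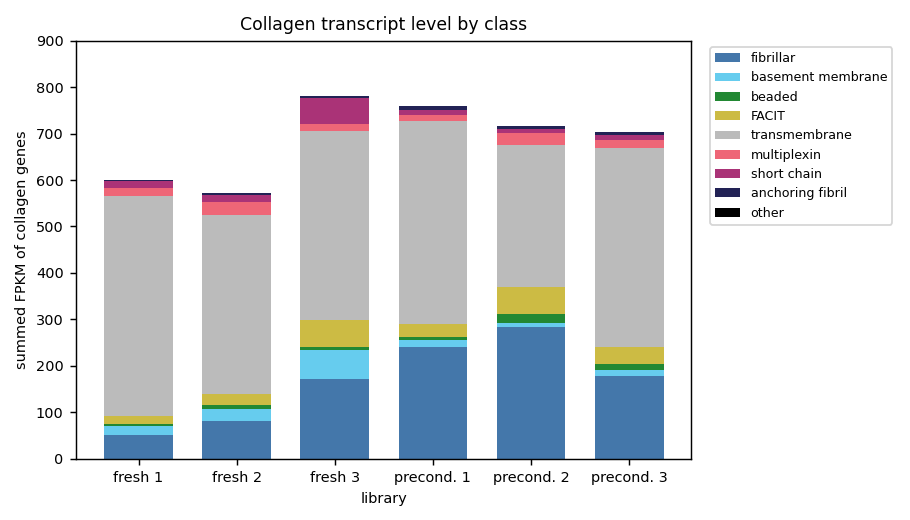
Summed FPKM of the collagen genes in each of the 6 libraries, stacked by class from a baseline of 0. The grey transmembrane block, nearly all COL17A1, is the tallest in every library, the dark blue fibrillar block spans 51.1 to 172 FPKM in the fresh and 179 to 283 FPKM in the preconditioned libraries, and fresh replicate 3 has the largest basement membrane and short chain blocks.

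Chains that enter the same molecule were compared as ratios of their FPKM within each library, which do not depend on library scaling. The type I molecule holds more COL1A1 than COL1A2 chains. The ratio of COL1A1 to COL1A2 was 1.10, 1.39 and 0.592 in the fresh libraries and 1.94, 2.87 and 3.27 in the preconditioned libraries. Every preconditioned library was above every fresh one. The ratio of COL4A1 to COL4A2 was 0.905, 1.07 and 1.11 in the fresh group, against 1.29, 0.855 and 0.942 in the preconditioned group, close to even in all 6 libraries although their levels differed severalfold. The ratio of COL6A1 to COL6A2 was 1.28, 1.76 and 1.07 against 1.27, 1.44 and 1.39, likewise overlapping. The ratio of COL6A3 to COL6A2 was 0.392, 0.448 and 0.413 against 0.876, 0.745 and 0.432, with preconditioned replicate 3 inside the fresh range.

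Other ratios were chosen after the values were seen. That of COL1A1 to COL3A1 was 1.36, 1.35 and 0.564 in the fresh group, against 3.31, 2.33 and 4.73 in the preconditioned group, without overlap. The ratio of COL8A1 to COL8A2 was 2.23, 1.85 and 2.04 against 1.26, 0.811 and 0.877, also without overlap, and here fresh replicate 3 was level with its group although it held 3.57 and 3.52 times the mean CPM of the other fresh libraries. The ratio of COL4A3 to COL4A4 was 0.637, 0.820 and 0.708 in the fresh libraries, so that these chains were high together in fresh replicate 3. In the preconditioned libraries it was 0.707, 1.53 and 0.203, from 3 to 20 counts per gene.

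**Figure D4:**
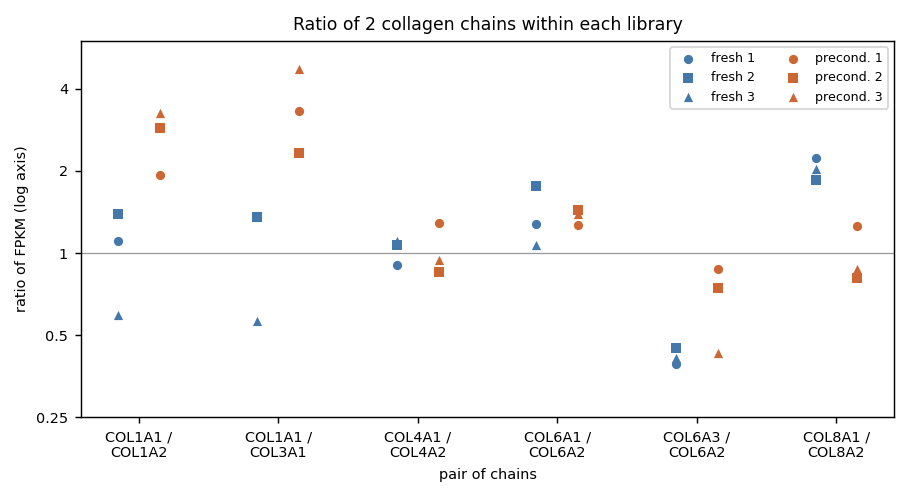
Ratio of the FPKM of a pair of collagen chains (log axis) in each of the 3 fresh (blue) and 3 preconditioned (orange) libraries. The orange points lie above the blue ones for COL1A1 to COL1A2 and COL1A1 to COL3A1 and below them for COL8A1 to COL8A2, whereas COL4A1 to COL4A2 stays between 0.855 and 1.29 in both groups.

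Several collagen genes are neighbours on the chromosome. In RefSeq's annotation of the rabbit assembly mOryCun1.1, no other protein-coding gene lies between COL4A1 and COL4A2, COL4A3 and COL4A4, COL6A1 and COL6A2, or COL3A1 and COL5A2, and 2 lie between COL6A1 and COL18A1 and between COL4A5 and COL4A6. Within the directly adjacent type IV and type VI pairs, log2 fold changes differed by 0.01 (COL6A1 and COL6A2, and COL4A1 and COL4A2) and 0.12 (COL4A3 and COL4A4). The standard errors of the single log2 fold changes were 0.38 to 1.33. They do not measure the spread of a difference between 2 genes of the same libraries. COL3A1 and COL5A2 had 0.85 and 0.06, and among the pairs with 2 genes between them, COL4A5 and COL4A6 had −0.45 and −0.75 and COL6A1 and COL18A1 had 1.20 and −0.99.

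A further 30 rows were described in the table as collagen chains but had a LOC identifier in place of a symbol, so that the rule did not take them. Their descriptions are not a firm guide to the gene. RefSeq's table held 16 of these identifiers and gave none a collagen symbol, and it listed the tested LOC100347327 as C1QA, a complement gene, and LOC103345542 as a long non-coding RNA. Of the 30 rows, 11 were tested. LOC103346860, described as type XVIII collagen and not among those 16, had 1946, 2873 and 1736 counts in the fresh libraries and 1103, 820 and 978 counts in the preconditioned libraries, close to the counts of COL18A1 in each library (1798, 2631 and 1650 against 1140, 688 and 896). Whether reads of 1 gene were divided between these 2 rows was not tested. LOC103346860 was called lower (log2 fold change −1.01, edgeR's adjusted p = 0.046). With both rows summed, a choice made after seeing the data, the log2 fold change was −0.9983 (standard error 0.22, adjusted p = 0.049), short of the fold cutoff by the last digits.

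The genes that make, process, crosslink and bind collagen were examined as a list of 47, of which 43 were in the table and 41 were tested. None was called by edgeR, and 13 had an unadjusted p no higher than 0.05, as did 30.6% of all tested genes. DESeq2 called ITGA1 and ITGA11 higher, 2 of the 41, against 7.78% of its tested genes called in either direction. The preconditioned libraries lay above the fresh ones for 10 genes (17.9% of all tested genes did so) and below them for 3 (18.8%), and the median log2 fold change was 0.27. Of 14 tested enzymes that hydroxylate or glycosylate the chains, 6 lay above without overlap, namely P4HA1, P4HA2, P4HA3, P4HB, P3H2 and P3H4, with log2 fold changes of 0.45 to 0.96. P4HA1, the catalytic subunit of prolyl 4-hydroxylase, had 51.8, 45.8 and 58.7 CPM in the fresh libraries and 75.1, 107 and 79.9 CPM in the preconditioned libraries (log2 fold change 0.75, edgeR's adjusted p = 0.051; singled out after its values were seen). Of 9 genes for folding and export, SEC23A lay above and MIA2 below.

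The 6 tested genes for removal of propeptides had log2 fold changes from −1.83 to 1.32. ADAMTS14, a procollagen N-proteinase, had 1.22, 0.394 and 2.19 CPM in the fresh libraries and 2.53, 3.74 and 3.23 CPM in the preconditioned libraries, without overlap (log2 fold change 1.32, adjusted p = 0.17). The related ADAMTS3 had 0.406, 0.506 and 4.62 CPM against 0.609, 0.352 and 0.593 CPM, where fresh replicate 3 alone was high (−1.83, adjusted p = 0.25). Of the 4 tested lysyl oxidases, which crosslink collagen, LOXL2 had 141, 173 and 172 CPM in the fresh group, against 92.8, 83.1 and 69.8 CPM in the preconditioned group. The groups were well apart, and its log2 fold change of −0.98 (edgeR's adjusted p = 0.031) missed only the fold cutoff. LOXL4 had 229, 277 and 315 CPM against 212, 141 and 81.5 CPM (−0.92, adjusted p = 0.12).

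Of 8 tested collagen receptors and uptake receptors, ITGA1, the alpha chain of a collagen-binding integrin, had 2.03, 2.84 and 7.03 CPM in the fresh libraries and 9.07, 12.6 and 11.5 CPM in the preconditioned libraries, without overlap (log2 fold change 1.48, adjusted p = 0.089). ITGA11 had 18.6, 15.4 and 26.7 CPM against 20.9, 41.8 and 65.3 CPM, with preconditioned replicate 1 inside the fresh range (1.08, adjusted p = 0.14). ITGB1, the beta chain shared by these integrins and singled out after its values were seen, had 2145, 1532 and 1933 CPM against 2719, 3875 and 3936 CPM (0.91, edgeR's adjusted p = 0.048) and missed only the fold cutoff.

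Fibroblasts, pericytes and other cells of the limbal stroma also express collagens. Of 13 listed markers of keratocytes and fibroblasts, 12 were in the table, 11 were tested and none was called. Their summed level was 2002 to 2763 CPM in the fresh libraries and 3370 to 4621 CPM in the preconditioned libraries, above without overlap, and most of it came from ALDH1A1 and FN1. Without ALDH1A1, left out after seeing the data, the sums were 761 to 1601 CPM against 1165 to 2929 CPM and overlapped. Of the 11 tested markers, 6 had positive and 5 negative log2 fold changes. ALDH1A1 alone was higher without overlap, with 1058 to 1241 CPM in the fresh and 1669 to 3120 CPM in the preconditioned libraries. Its log2 fold change was 1.01 (edgeR's adjusted p = 0.05045). The groups overlapped for LUM (31.3 to 53.3 CPM in the fresh and 23.6 to 113 CPM in the preconditioned libraries), DCN (85.8 to 142 against 38.3 to 208) and KERA (2.53 to 8.81 against 0.790 to 2.86).

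Of 7 myofibroblast and pericyte markers, 6 were tested and RGS5, a pericyte marker, was called higher. It had 0.956, 0.619 and 0.793 CPM in the fresh libraries and 54.4, 31.8 and 2.86 CPM in the preconditioned libraries, uneven within that group (log2 fold change 5.23, standard error 1.04, edgeR's adjusted p = 0.045). Their sum was 36.7 to 95.2 CPM in the fresh and 61.0 to 171 CPM in the preconditioned libraries, and DES had at most 1 count in any library. Epithelial markers, 7 of 10 listed being in the table, summed to 9758 to 13490 CPM and 9167 to 13500 CPM, overlapping ranges, and most of the sum was KRT5. Of these markers, TP63 was lower without overlap (226 to 246 CPM against 112 to 184 CPM, edgeR's adjusted p = 0.059) and EPCAM higher without overlap (77.5 to 91.8 CPM against 102 to 126 CPM, edgeR's adjusted p = 0.060), and neither was called. The sums over 5 endothelial markers were 2.87 to 3.25 and 1.28 to 13.2 CPM, over 6 immune markers 96.0 to 132 and 123 to 311 CPM, nearly all of it CD68, over 5 melanocyte markers 4.36 to 5.69 and 2.59 to 3.79 CPM, and over 2 Schwann cell markers 0.174 to 0.534 and 0.152 to 1.57 CPM.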

How the data were processed

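Poly(A) RNA of 6 libraries (3 fresh, 3 preconditioned) was sequenced on an Illumina platform. Alignment was done by the authors with hisat2 and counting with htseq-count, and they deposited raw counts together with FPKM values, which equal each count divided by the library total and 1 length per gene. The genome build, annotation and strand setting are not given in the sources used here, so overlapping genes cannot be separated, and the records and methods differ on the RNA extraction reagent (TRIzol or an Omega kit).

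The counts were fitted with edgeR 4.0.16 under R 4.3.3 (filterByExpr, TMM, glmQLFit with robust estimation, glmQLFTest, condition as the only factor) and the Benjamini-Hochberg adjustment over all tested genes. The fits were tested on simulated counts. Standard errors were derived from the F statistic. Depth was 31952352 to 34327534 counts on genes, so that precision is set by the spread among libraries, apart from members with few counts. All 41 identifiers were found in RefSeq's table of the assembly mOryCun1.1, used for names and neighbours only.

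Members and lists were chosen with earlier results of these data known. Values per library are given for tested members with an adjusted p of at most 0.1 or a log2 fold change of 1 or more in size, the 2 members of each class with the highest mean FPKM, and the collagens the study names. Of the list of synthesis, crosslinking and receptor genes, called genes and the 3 largest log2 fold changes in each direction are named. Alternatives were DESeq2 1.42.0, scaling by DESeq2's size factors or by library size alone, 2 other filters, the replicate number as a block, limma 3.58.1 on log2(FPKM + 1) and log2(FPKM + 0.1), no fold cutoff, CPM for FPKM, and leaving out each library.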

Additional observations from a re-analysis of the deposited data

How the results depend on the processing

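With DESeq2, 1190 genes (553 higher, 637 lower) were called, among them 6 collagens higher (COL1A1, COL6A1, COL6A2, COL6A3, COL7A1, COL15A1), 4 lower (COL4A1, COL4A2, COL8A1, COL9A3) and 2 genes of the collagen processing list. DESeq2 gave no adjusted p for COL4A3 and COL4A4. Library size alone gave 565 genes (423 lower), 2 collagens higher (with COL6A3), 2 lower (with COL18A1) and 1 processing gene. It also turned COL5A2 to −0.12 and COL17A1 to −0.11. With at least 1 CPM in 3 libraries, 2 collagens were higher and 0 lower in edgeR, since COL9A3 was then not tested. With the replicate number as a block, 30 genes were called (13 higher, 17 lower), with COL1A1 higher (adjusted p = 0.028 from edgeR) and 0 collagens lower. Libraries of the same number did not deviate together (correlations −0.067, −0.073 and −0.109). With so few libraries per group this cannot show whether they shared animals or a batch. limma on log2(FPKM + 1) gave 75 higher and 182 lower genes, 0 collagens lower and 1 processing gene, and on log2(FPKM + 0.1) it gave 521 genes (123 higher, 398 lower), 2 collagens lower and 1 processing gene. COL17A1 was at −0.12 in both. Without a fold cutoff, 763 genes (433 higher, 330 lower) and 2 processing genes passed. DESeq2's size factors and no filter on low counts kept the calls of all 29 collagens. Leaving out each library gave 14 to 1546 genes (5 to 616 higher, 9 to 930 lower), 0 to 4 collagens higher, 0 to 2 lower and 0 to 5 processing genes, with the highest counts without preconditioned replicate 1. Signs turned for COL5A2 (−0.34 to 0.996), COL11A1 (−0.58 to 0.14), COL17A1 (−0.028 to 0.18) and COL8A2 (−1.04 to 0.18). With CPM for FPKM, the FACIT share was 8.14% (fresh) and 9.58% (preconditioned), the COL7A1 share 0.816% and 1.38%, the short chain share 1.20% (preconditioned), the ratio of COL6A1 to COL6A2 1.002 and 1, and that of COL6A3 to COL6A2 0.864 and 1.41, because CPM does not correct for length. With COL1A1 left out, chosen after seeing the data, the preconditioned fibrillar share was 19.9%. The cause of the other shifts was not tested. Members under 20 counts are limited by depth.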
